A study of Mus musculus with 28 samples.

Results

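Medulloblastoma, an embryonal tumour of the cerebellum, was compared with the normal brain arrays that carried the most cerebellar RNA. The comparison used 13 of the 28 microarrays of the series: all 10 labelled medulloblastoma and 3 of the 12 labelled normal brain. The 3 normal arrays were chosen by a measured value, a Gabra6 intensity above 1000 on the brightest probe set of that gene; the labels name no brain region. Every medulloblastoma came from a mouse with hGFAP-Cre and p53-/-. Of these tumours 3 had no further targeted allele (A3, A5 and A6), 2 were Rictor+/- (B4 and B6) and 5 were Rictor-/- (C1, C2, C4, C5 and C6). The 3 normal arrays had 3 different genetic labels: Z2 came from mice labelled only as normal, taken here as wild type, B2 from hGFAP-Cre, p53-/-, Rictor+/- mice and C5 from hGFAP-Cre, p53-/-, Rictor-/- mice. The human GFAP promoter drives this Cre in neural stem and progenitor cells, the precursors of cerebellar granule neurons among them, and in glia. The labels give no age and do not tie the arrays to different animals, so each p-value reflects only how much these arrays vary, and that variation may be technical. Tumour C5 and normal array C5 share a title prefix and code. Whether they came from the same mouse is not stated, and the fit took them as independent. The tissue was bulk RNA, in which fewer cells of a type and less RNA per cell cannot be told apart.

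Granule neurons are the most abundant neurons of the cerebellum. Their precursors divide on its outer surface after birth in response to Sonic hedgehog (SHH), which Purkinje cells secrete. SHH binds the receptor Patched and so releases Smoothened, which activates the Gli transcription factors and, through them, Mycn and the D-type cyclins. Precursors that leave the cell cycle migrate inward along Bergmann glia and mature, and medulloblastomas of the SHH type arise from precursors that keep dividing. Comparing the tumours with cerebellum-rich tissue sets them against bulk tissue that holds mature granule neurons, among other cell types, rather than against forebrain. The labels give no subtype or cell of origin for these tumours.

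The choice separated the normal arrays widely. Gabra6, a GABA-A receptor subunit of mature granule neurons, had intensities of 4918 in Z2, 4153 in C5 and 1740 in B2, the array just inside the limit. The normal array just outside it, C6, had 116.3, and the other 8 lay between 1.1 and 18.3. Cbln3, a secreted protein of granule neurons, had 2869 in Z2, 2372 in C5 and 778.3 in B2 against 4.4 to 55.8 in the other 9. Gabra6 is the value that chose the arrays and Cbln3 is tied to that choice, so both describe the arrays and do not test their name; B2 had the lowest value of the 3 for each. The forebrain list (11 genes tested, among them Tbr1, Drd1 and Cck) had a mean level of 4.48 to 5.83 on the log2 scale in the chosen arrays and 7.78 to 8.90 in the other 9. Among 13931 genes tested, 1070 had all 3 chosen arrays above (439) or below (631) all 9 others with means more than 1 apart on the log2 scale. These genes, tied to the choice of arrays, are given below as values with no test. The remaining genes are called untied, which means only that they did not meet this rule.

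Tumours differed in how much of the mature cerebellar signal they held. Gabra6 ran from 8.1 in A3 to 1638 in B6, with a median of 42.2. B6 and C6, at 1324, were far above the third tumour, C5, at 187.2. The mean level of the 14 granule neuron genes tested was 8.02 in B6 and 8.32 in C6 and 5.30 to 6.58 in the other 8 tumours, against 8.26 to 9.80 in the cerebellum-rich arrays. The Purkinje cell list (14 genes) was at 8.82 in B6, 8.70 in C6 and 5.36 to 7.23 in the other 8, and all 10 tumours lay below the 9.56 to 10.8 of the cerebellum-rich arrays. Tumour C1 differed again: its synapse list stood at 8.28, equal to that of B6, while its granule neuron list stood at 6.11. Its forebrain list was at 6.26, the highest of the tumours and close to the 6.19 of C6. Across genes, the correlation of a tumour with the mean of the cerebellum-rich arrays was highest for C6 (0.880), B6 (0.846) and C1 (0.809). It was 0.726 to 0.791 for the other 7, a description over genes measured on shared arrays.

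**Figure D1:**
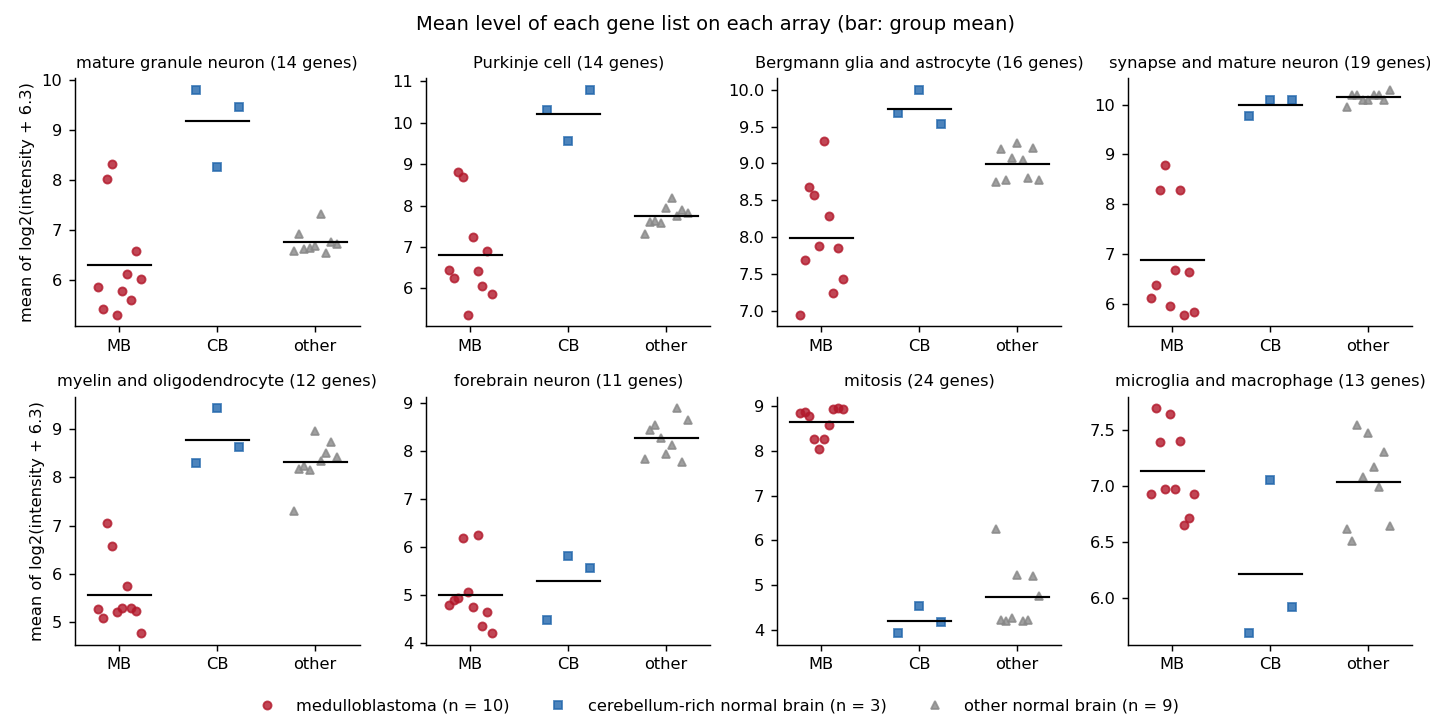
Mean of log2(intensity + 6.3) over the tested genes of 8 lists (vertical axes) on each array of the medulloblastomas (MB, circles), cerebellum-rich normal brains (CB, squares) and other normal brains (other, triangles); bars are group means. Granule neuron genes set 2 tumours at 8.02 and 8.32 apart from the other 8, and mitosis genes separate all tumours (8.04 to 8.95) from the cerebellum-rich arrays (3.93 to 4.54).

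Differences were widespread. Of the 13931 genes, limma called 5605 at an adjusted p under 0.05 (40.2%), 2594 higher in medulloblastoma (18.6%) and 3011 lower (21.6%), and 3688 of the called genes differed by more than 2-fold (26.5%). At an unadjusted p under 0.05 there were 6831 genes (49%). All 10 tumours lay above all 3 normal arrays for 1819 genes (13.1%) and below them for 2001 (14.4%). Of the 12861 genes not tied to the choice, 5082 were called (39.5%), 2473 higher (19.2%) and 2609 lower (20.3%), with no overlap of the groups for 1734 (13.5%) above and 1769 (13.8%) below. Their median log2 difference was -0.0165, with quartiles of -0.581 and 0.546. The list counts below refer to untied genes and are read against the shares of 19.2% and 20.3%.

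RNA quality moved with the groups. Degraded RNA raises the 3'/5' signal ratio of actin, and this was 1.49 to 4.38 in the tumours and 6.21 in Z2, 6.01 in B2 and 3.45 in C5. Its part in the results was not tested. With C5 as the only normal array, whose ratio lay inside the range of the tumours, 850 genes were called higher and 706 lower, the lone array being assumed to vary like the tumours. The call counts with Z2, B2 or C5 left out ranged from 1853 to 2118 higher and from 2178 to 2503 lower. The title prefixes YZ and YZ2, whose meaning the labels do not give, divide the arrays into 7 (5 tumours, B2 and C5) and 6 (5 tumours and Z2). With the prefix as a term 2614 genes were called higher and 2992 lower, within YZ 1702 and 2060, and within YZ2, with its single normal array, 344 and 23.

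Genes of cell division were higher in the tumours, and the mitosis list had the highest median of the 29 lists. Of the 23 mitosis genes not tied to the choice, 23 were called higher, with a median log2 difference of 4.20. Mki67, the proliferation marker Ki-67, had a lowest value of 478.8 in the tumours, a median of 1430 and a highest of 2007. In the cerebellum-rich arrays it had 2.8 in Z2, 15.1 in B2 and 3.5 in C5. Its groups did not approach each other, and the log2 difference of 6.59 (SE 0.40, limma adjusted p = 1.72e-08) was the largest rise of an untied gene, clone and predicted names skipped. Ube2c, the ubiquitin-conjugating enzyme of the anaphase-promoting complex, differed by 6.21 (SE 0.34, adjusted p = 5.60e-09). Top2a, which untangles chromosomes before they separate, differed by 6.17 (SE 0.31, adjusted p = 2.31e-09), from 665.4 to 2031 in the tumours against 8.7, 25.6 and 10.4 in Z2, B2 and C5. Birc5, the survivin subunit of the chromosomal passenger complex, differed by 5.35, and Cdca3 and Pbk, mitotic genes outside the list, by 5.39 and 5.35. Cdk1, the kinase that starts mitosis, and Bub1, a kinase of the spindle checkpoint, rose by 5.14 and 5.13. The smallest rise of the list was that of Foxm1, a transcription factor of mitotic genes, with 43.9 to 110.3 against 19.4, 48.5 and 42.2 (0.83, SE 0.31, adjusted p = 0.0421), and these groups overlapped. Foxm1 was not called without Z2, without C5 or without any one of 5 tumours (A5, B4, B6, C2 and C5). The count of 23 was 23 without B2, and 22 without Z2, without C5 and without both B6 and C6.

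Many promoters of mitosis genes hold a common sequence element, and it is shown here because the mitosis genes moved together. TTTGAA is the core of the cell cycle genes homology region, through which the DREAM complex represses mitotic genes in resting cells. It was searched on both strands in RefSeq windows of GRCm38.p6, from 100 bases before to 50 after the annotated start. It occurred in 14 of the 19 mitosis genes with a window (73.7%) and in 657 of the 11191 tested genes with one (5.87%); among all 27025 genes with a window the share was 9.23%. Among the 5 windows that lacked it were those of Birc5 and Bub1. In other lists it stood in 3 of 12 SHH pathway genes (25%), 3 of 20 DNA replication genes (15%), 1 of 17 precursor transcription factors (5.88%), and none of 10 myelin genes and 11 synapse genes. In the full windows of 300 bases, from 250 before to 50 after the start, the shares were 73.7% for mitosis, 25% for the SHH pathway, 23.5% for precursor transcription factors, 20% for DNA replication, 18.2% for synapse genes and 14.3% for all tested genes. The first 4 lines below give the 100 bases before the start of mitosis genes, 5′ to 3′ on the strand of the gene, with TTTGAA or its reverse complement TTCAAA in capitals. They are chr10:69352913-69353012 (minus strand) for Cdk1, chr4:118437344-118437443 (minus) for Cdc20, chr2:164769829-164769928 (plus) for Ube2c and chr11:99024190-99024289 (minus) for Top2a.
Cdk1: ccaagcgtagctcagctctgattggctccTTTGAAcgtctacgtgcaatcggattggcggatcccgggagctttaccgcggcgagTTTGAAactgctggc
Cdc20: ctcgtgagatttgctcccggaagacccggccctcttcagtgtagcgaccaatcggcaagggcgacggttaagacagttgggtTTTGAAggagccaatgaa
Ube2c: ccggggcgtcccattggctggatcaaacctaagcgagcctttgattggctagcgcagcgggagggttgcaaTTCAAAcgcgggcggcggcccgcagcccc
Top2a: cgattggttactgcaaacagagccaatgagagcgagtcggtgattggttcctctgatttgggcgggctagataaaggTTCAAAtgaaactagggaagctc
Mcm6: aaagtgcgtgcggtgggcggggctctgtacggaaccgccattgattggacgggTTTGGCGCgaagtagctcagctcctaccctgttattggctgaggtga
Replication genes are known instead for E2F sites, spelled here as TTTCCCGC or TTTGGCGC on either strand. In windows of 300 bases these stood in 9 of the 20 replication genes (45%), in 366 of the 11191 tested genes (3.27%) and in none of the 19 mitosis genes. In the 150-base windows they stood in 5 of the 20 replication genes (25%), in 202 tested genes (1.81%) and again in none of the mitosis genes. The fifth sequence, that of Mcm6 (chr1:128359706-128359805, minus strand), has TTTGGCGC in capitals. A match describes letters in a window and is not evidence that a factor bound there.

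DNA replication genes rose almost as uniformly. Of 24 genes tested, 23 were called higher, none lower and 1 was not called, with a median difference of 2.45. Rrm2, the subunit of ribonucleotide reductase made in dividing cells, differed by 6.03 (SE 0.44, adjusted p = 9.53e-08). Mcm6, a subunit of the helicase that opens replication origins, had 635.1 to 1911 in the tumours with a median of 1236, and 6.1 in Z2, 11.9 in B2 and 29.6 in C5. Its groups were far apart (5.90, SE 0.31, adjusted p = 5.11e-09). Mcm3, of the same helicase, and Cdc6, which loads it, differed by 4.31 and 4.17. The one gene not called was Fen1, the nuclease that trims Okazaki fragments (0.52, SE 0.33, adjusted p = 0.231). The clamp Pcna, at 1572 to 3216 in the tumours, was already at 519.2 in Z2, 687.7 in B2 and 606.3 in C5, and its difference was 1.99.

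Regulators of the G1 phase rose as well, inhibitors among them. Of 19 untied genes 14 were called higher and none lower, with a median of 2.05. Cdk6, a partner of the D-type cyclins, ran from 472.7 in C1 to 4715 in C4 with a median of 1217, and was 7.7 in Z2, 21.6 in B2 and 13.9 in C5 (6.12, SE 0.52, adjusted p = 5.54e-07). Cdk4, its paralogue, differed by 3.32 and E2f1, a transcription factor released by these kinases, by 3.15. Cdkn2a, which encodes the inhibitor p16 and the p53 activator ARF, was uneven among the tumours. It stood at 971.7 in A3, 713.3 in C5, 617.4 in C4 and 492.1 in C1, between 83.6 and 157.5 in A6, B6 and C2, and at 42.6, 27.7 and 23.4 in A5, B4 and C6. The cerebellum-rich arrays had 0.9, 13.7 and 3.3, so that all tumours were above them (3.92, SE 0.99, adjusted p = 0.00529). Cdkn2a was not called with the Rictor genotype as a term and Z2 left out (3.28, limma adjusted p = 0.0751). Cdkn2c and Cdkn1b, the inhibitors p18 and p27, rose by 2.33 and 1.16. Cdkn1b was not called without B2 or with the mean of its probe sets (0.99, limma adjusted p = 0.15). Cdkn1a, the inhibitor p21 and a target of p53, had 53.5 to 289.9 against 104.2, 479.5 and 166.2 (-0.50, SE 0.48, adjusted p = 0.430).

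Among transcription factors of granule neuron precursors the data fell into separate patterns. Of 11 untied members 7 were called higher, none lower and 4 were not called, with a median of 1.04. Atoh1, which defines the precursor state and is switched off on differentiation, had 37.5 in C6 and 493.3 to 1679 in the other 9 tumours. It was 8.1 in Z2, 2.2 in B2 and 9.7 in C5 (5.96, SE 0.79, adjusted p = 5.45e-05). Nhlh1 and Nhlh2, basic helix-loop-helix factors of young neurons, differed by 3.39 and 3.34, and Barhl1, a homeobox factor downstream of Atoh1, by 2.87. Nfib, Zic4 and Nfia rose by 2.02, 1.04 and 1.03. Neurod1, a factor kept from late precursors into mature granule neurons, behaved differently: it had 1603 to 4736 in the tumours against 3831 in Z2, 904.4 in B2 and 3232 in C5. These groups overlapped, and Neurod1 was not called (0.36, SE 0.34, adjusted p = 0.421). Neurod1 did not meet the rule for tied genes, but its difference from the other normal brains was much larger. Its level in the chosen arrays thus went with the choice by Gabra6. The lack of a call is therefore a description, from which no conclusion is drawn.

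Several factors of the granule neuron precursor list were closer in level to the cerebellum-rich arrays than to the other normal brains, and above the latter. Zic1, a zinc finger factor of the whole lineage, had 3305 to 5219 in the tumours, 4462 in Z2, 2374 in B2 and 4595 in C5, and 485 to 1260 in the other normal brains. Its log2 difference was 0.18 against the cerebellum-rich arrays and 2.55 against the other 9, a gene tied to the choice and not tested. Zic2 gave 0.00 and 2.81, Barhl2 0.57 and 3.41, and En2, a homeobox gene of the hindbrain, -0.79 and 3.91 on the same 2 scales. Tied factors with a rise on both were Insm1, a zinc finger factor of cycling neuronal precursors (6.55 and 4.43), Sox11 (4.80 and 2.69), Sox4 (3.57 and 2.12), Meis1 (1.5 and 3.52) and Pax6 (1.41 and 3.68). Insm1 had 765.4 to 2444 in the tumours and 4.8, 8.6 and 7.5 in Z2, B2 and C5. The 2 sets of differences share the tumour arrays.

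**Figure D2:**
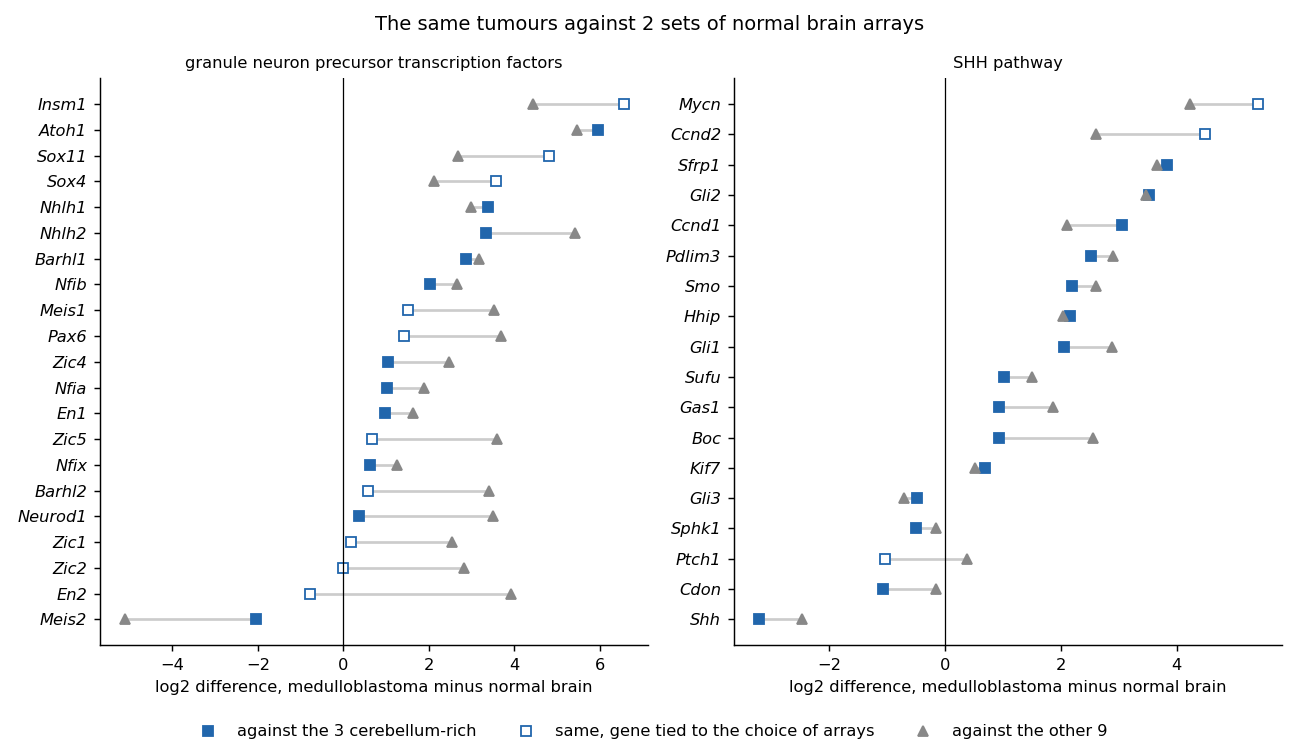
Log2 difference, medulloblastoma minus normal brain (horizontal axis), for each tested member of 2 gene lists against the 3 cerebellum-rich arrays (squares, open where the gene is tied to the choice of arrays) and against the other 9 normal brains (triangles). Atoh1 (5.96 and 5.46) and Gli2 (3.52 and 3.48) hardly move with the reference, whereas Zic1 (0.18 and 2.55) and Neurod1 (0.36 and 3.50) do.

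More SHH pathway genes were higher than lower in the tumours, and the ligand was among the lower ones. Of 15 untied members 9 were called higher, 2 lower and 4 were not called, with a median of 1.01. Without B2 the higher count was 6, with Gli1, Boc and Pdlim3 no longer called. With the Rictor genotype as a term and Z2 left out, Gli1, Hhip and Pdlim3 were not called (limma adjusted p = 0.055, 0.0555 and 0.0972). The ligand Shh, made by Purkinje cells, had 5.0 to 40.1 in the tumours and 129.7, 200.7 and 230.1 in Z2, B2 and C5 (-3.22, SE 0.43, adjusted p = 5.93e-05). Markers of Purkinje cells moved with it, as given below; their part in this difference was not tested. Among receptors and co-receptors, Smo rose by 2.20, Boc by 0.93, and Cdon, a co-receptor related to Boc, fell by 1.07 on the log2 scale. Cdon was not called without Z2, against all 12 normal brains or with the mean of its probe sets.

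Of the Gli factors, Gli2, the main activator, had 421.8 to 1600 in the tumours with a median of 658.6, and 49.8 in Z2, 73.7 in B2 and 46.2 in C5. Its groups did not overlap (3.52, SE 0.34, adjusted p = 2.59e-06). Gli1, itself a target of the pathway, had 23.4 in C6 and 95.4 to 320.7 in the other 9 tumours against 47.7, 15 and 39.6 (2.06, SE 0.57, adjusted p = 0.00950). The inhibitor Hhip, which binds SHH, rose by 2.16, and Sufu, which holds Gli factors in the cytoplasm, by 1.01. Sfrp1, a secreted WNT inhibitor induced by SHH, rose by 3.84 and Ccnd1, cyclin D1, by 3.05. Pdlim3, a marker of SHH-type medulloblastoma, rose by 2.52. Mycn, tied to the choice, had 1178 to 4134 in the tumours, 49.8, 27.1 and 53.5 in the cerebellum-rich arrays, and 58.6 to 379.5 in the other normal brains. Ccnd2, cyclin D2, had 424.8 to 6928 against 48.7, 168.0 and 121.7.

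Ptch1, the receptor that restrains the pathway and is also one of its targets, was split among the tumours. It had 34.2 in A3 and 42.3 in C5 but 371.7 to 1942 in the other 8, beside 1368 in Z2, 931.9 in B2 and 1244 in C5. The other normal brains had 267.5 to 579.8, and the gene is tied to the choice. In A3 and C5, Gli1 was 269.9 and 320.7 and Pdlim3 341.6 and 712.1, which places both among the upper tumours for those targets. Ptch1 and Gli1 were therefore not low in the same tumours: the lowest Gli1, in C6, came with a Ptch1 of 1131. C6 also had the highest granule neuron list of the tumours, 8.32 against 8.26 to 9.80 in the cerebellum-rich arrays. The part of such tissue in its Ptch1 and Gli1 values was not tested.

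Genes of immature and migrating neurons were mostly raised. Of 16 untied members 11 were called higher, 1 lower and 4 were not called, with a median of 1.21. Igfbpl1, an IGF-binding-protein-like gene of newborn neurons, had 181.4 to 1088 in the tumours and 1.6, 1.1 and 2.0 in Z2, B2 and C5 (5.66, SE 0.49, adjusted p = 6.82e-07). Dcc, the netrin receptor, differed by 4.91, and Cxcr4, the receptor that keeps precursors at the cerebellar surface, by 4.14. Draxin, a secreted axon guidance protein, was no list member and differed by 5.40. Marcksl1, an actin regulator of growing neurons, had 1701 to 2783 against 147.0, 206.7 and 111.0 and differed by 3.86. Robo1 was called higher, but another probe set of it was called in the opposite direction. Unc5c, another netrin receptor, was the one lower call (-1.39, SE 0.35, adjusted p = 0.00534). Tubb3, neuronal tubulin, which both young and mature neurons make, had 210.6 to 946.9 against 263.8, 584.7 and 483.2 and was not called (0.30, SE 0.41, adjusted p = 0.588). Dcx, doublecortin, tied to the choice, had 403.4 to 1312 against 18.5, 30.1 and 17.8.

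More chromatin and DNA methylation enzymes were higher than lower in the tumours. Of 17 tested 9 were called higher, 2 lower and 6 were not called, with a median of 0.755. The lower calls were a smaller share than the 20.3% among all untied genes. Uhrf1, which brings the maintenance methyltransferase to replicating DNA, differed by 5.30 (SE 0.36, adjusted p = 4.49e-08). Hells, a chromatin remodeller needed for methylation, differed by 3.80 and Lmnb1, lamin B1, by 3.17. The alternative catalytic subunits of Polycomb complex PRC2 went opposite ways. Ezh2, the one of dividing cells, had 572.6 to 1637 in the tumours against 119.9, 65.9 and 75.4 (3.57, SE 0.28, adjusted p = 2.44e-07). Ezh1, the one of resting cells, had 66.0 to 196.6 against 313.4, 289.6 and 297.7 (-1.40, SE 0.26, adjusted p = 6.84e-04). Neither pair of groups overlapped. Cbx7, a Polycomb chromodomain protein, was the other lower call (-2.32).

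**Figure D3:**
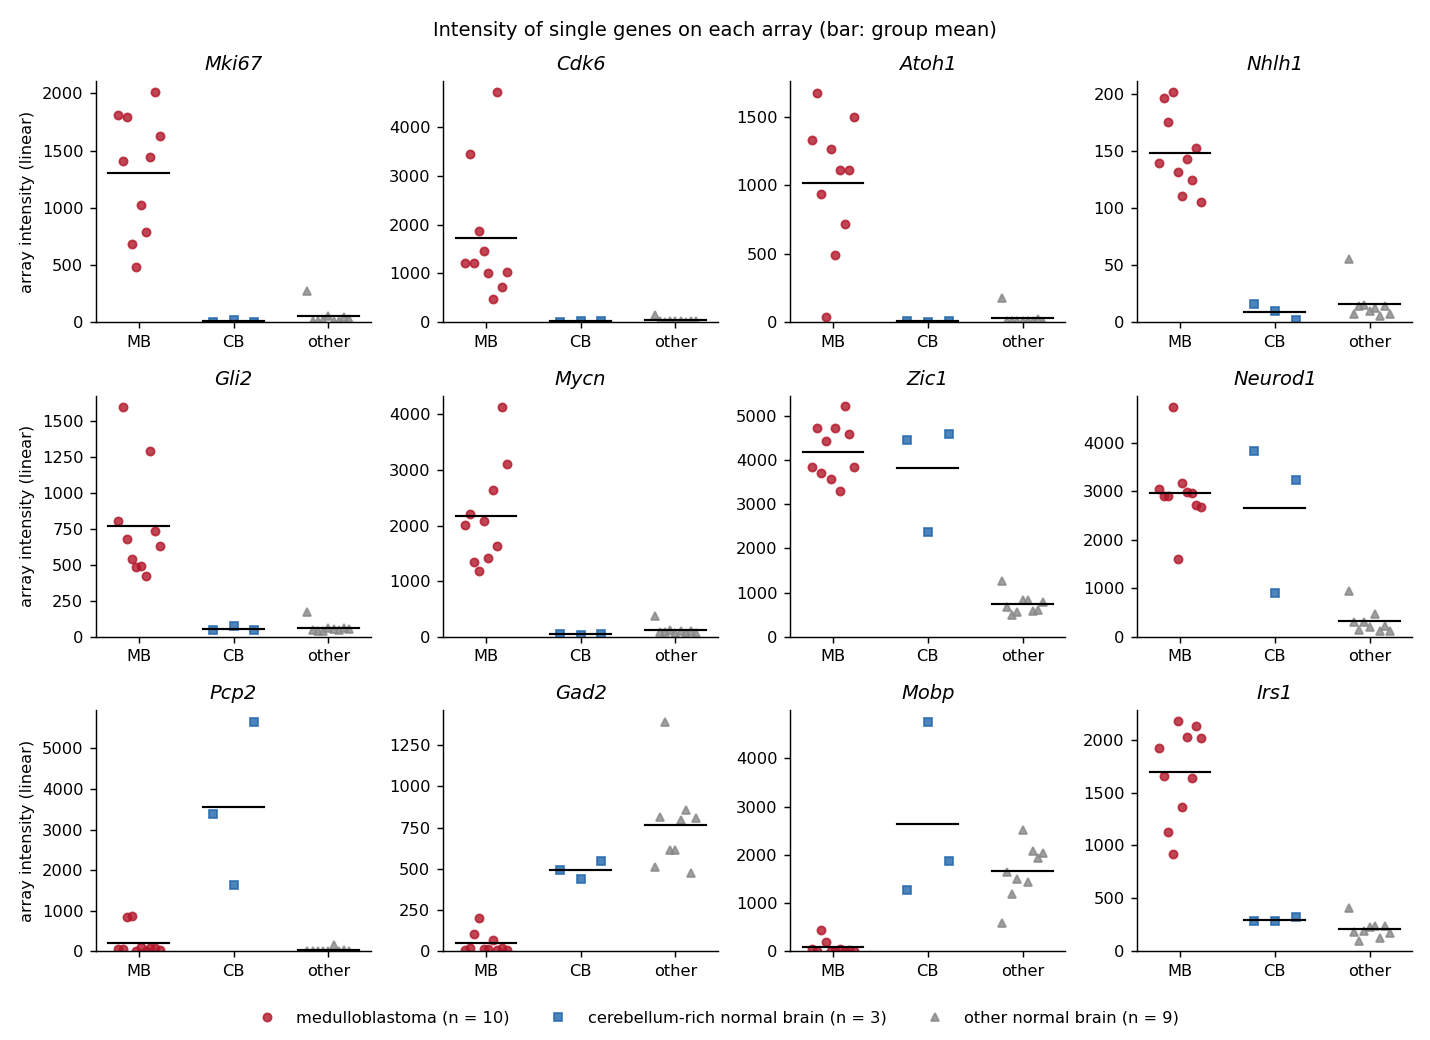
Intensity (vertical axes, linear, as deposited) of 12 genes on each array of the medulloblastomas (MB, circles), cerebellum-rich normal brains (CB, squares) and other normal brains (other, triangles); bars are group means. Mki67, Cdk6, Nhlh1, Gli2, Mycn and Irs1 separate all 10 tumours from the 3 cerebellum-rich arrays, Zic1 and Neurod1 overlap with them, and Pcp2, Gad2 and Mobp are lower in every tumour.

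Genes of mature cerebellar neurons were lower in the tumours than in the normal arrays, which were chosen by one such gene. Among granule neuron genes 9 of the 14 tested were tied to the choice, all with negative differences and a median of -2.81, which is given as a description. Of the 5 others 4 were called lower and 1 was not called, with a median of -2.4. A granule neuron transcript chose the arrays, so these calls are a description too and no conclusion is drawn from them. Gabrd, the extrasynaptic GABA-A receptor subunit of granule neurons, had 2.5 to 109.9 in the tumours and 682.1, 143.0 and 435.2 in Z2, B2 and C5 (-3.96, SE 0.70). In the normal arrays it kept the order of Gabra6. Kcnd2, a potassium channel subunit, and Svop, a synaptic vesicle protein, differed by -3.28 and -2.40. Neurod2 fell by 1.37, and was not called without C5.

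Of the 14 Purkinje cell genes tested, 11 were tied to the choice, which leaves 3 that did not meet the rule for tied genes. These 3 were called lower, with all 10 tumours below all 3 cerebellum-rich arrays, against 13.8% of all untied genes. The arrays were chosen by a cerebellar transcript, so the comparison with that share is a description. The tied members are given as values: 10 had negative differences, and the exception was Foxp2 (0.42). Pcp2, a Purkinje cell G protein regulator, had 5.5 to 109.0 in 8 tumours, 848.5 in B6 and 869.1 in C6, and 3393 in Z2, 1637 in B2 and 5657 in C5. The other normal brains had 2.5 to 163.8, so 8 tumours lay within their range. Calb1, the calcium buffer calbindin, had 18.0 to 1962 in the tumours against 5447, 3105 and 6899. The 3 untied members were Pcp4, a calmodulin regulator (-3.67, SE 0.88, adjusted p = 0.00378), Rora, a nuclear receptor needed for Purkinje cell maturation (-3.32, SE 0.55, adjusted p = 3.31e-04), and Shh.

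Synapse and neuron maintenance genes, which are not specific to the cerebellum, were lower too. Of 17 untied members 16 were called lower, none higher and 1 was not called, with a median of -3.14. Nefl and Nefh, the light and heavy neurofilament chains, differed by -4.91 and -4.85. Slc12a5, the chloride exporter KCC2 that makes GABA inhibitory in mature neurons, had 13.2 to 89.2 in 7 tumours, 524.2 in C1, 780.5 in B6 and 950.4 in C6. It was 2902 in Z2, 2826 in B2 and 2928 in C5 (-4.65, SE 0.99, adjusted p = 0.00177). Eno2, the neuronal enolase, differed by -4.30 (SE 0.87). Outside the list, Slc32a1, the vesicular transporter of inhibitory transmitters, differed by -4.75. Gad1 and Gad2, the enzymes that make GABA, differed by -4.28 and -3.86. Snap25, a core component of vesicle fusion, differed by -2.71. The member not called was Stmn2, a growth-cone protein of young and mature neurons (-0.86, SE 0.36, adjusted p = 0.0715). Further large falls in genes of no list were those of Vsnl1, a neuronal calcium sensor (-4.80), Elmod1 (-4.66), Fam107a (-4.65), Ckmt1 (-4.58), Snhg11 (-4.51) and Rit2 (-4.48). Left out together, B6 and C6 changed the count of lower synapse genes from 16 to 17.

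Genes of forebrain neurons gave no steady count: of 4 untied members, 2 were called lower, Tac1 and Ppp1r1b, and 2 were not called, but 4 were called lower without Z2 and 1 without B2 or without C5.

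Receptors and channels were lower as well. Of 12 untied glutamate and GABA receptor genes 8 were called lower and 4 were not called, with a median of -1.78. Without B2 the lower count was 5. Gabrb2, a GABA-A receptor subunit, had 24.7 to 680.2 in the tumours against 1569, 882.7 and 1589 (-3.95, SE 0.84, adjusted p = 0.00175). Grm7, a presynaptic metabotropic receptor, Gria1, an AMPA receptor subunit, and Gabrb1 differed by -2.84, -2.91 and -2.67, and Gria1 was not called without Z2. Of 14 untied voltage-gated channel genes 10 were called lower and 4 were not called, with a median of -2.33. Scn4b, a sodium channel beta subunit prominent in Purkinje cells, had 1.2 to 41.8 against 121.1, 608.0 and 312.2 (-4.22, SE 0.50, adjusted p = 1.83e-05). Scn1a and Scn2a, sodium channel pores, differed by -4.19 and -3.21, and Kcna1, a potassium channel of axons, by -3.86.

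Among glial genes, myelin showed the most uniform fall. All 12 tested members were called lower, with a median of -3.05 and no overlap between the groups for any of them. Mobp, a structural myelin protein, had 7.4 to 54.4 in 8 tumours, 201.5 in C6 and 445.5 in B6, against 1266 in Z2, 4759 in B2 and 1873 in C5. It was the largest fall of an untied gene, clone and predicted names skipped (-5.81, SE 0.90, adjusted p = 1.94e-04). Ermn, Mbp and Mag, further proteins of the myelin sheath, differed by -4.24, -3.71 and -3.65. The count of 12 was the same without Z2, without B2, without C5 and without B6 and C6. Genes of oligodendrocyte precursors did not follow them: of 9 tested 1 was called higher and 8 were not called, with a median of -0.0343. That one was Pdgfra, the PDGF receptor of these precursors, with 374.4 in C5 and 878.0 to 2019 in the other 9 tumours against 62.8, 423.1 and 150.4 (2.82, SE 0.48, adjusted p = 3.92e-04). Olig1 and Olig2, transcription factors of the same lineage, differed by -0.23 (SE 0.51, adjusted p = 0.744) and 0.85 (SE 0.51, adjusted p = 0.196).

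Bergmann glia and astrocyte genes mostly fell, with exceptions. Of 12 untied members 9 were called lower, 2 higher and 1 was not called, with a median of -2.14. Gjb6, a gap junction protein of astrocytes, had 5.9 to 163.2 in the tumours against 532.6, 1198 and 667.0 (-4.29, SE 0.83, adjusted p = 9.09e-04). Aldoc, the aldolase of Purkinje cells and astrocytes, Fgfr3 and Acsbg1 differed by -2.64, -2.60 and -2.60. The 2 higher members were Fabp7, a fatty-acid-binding protein of radial glia and immature astrocytes (1.93, SE 0.41, adjusted p = 0.00172), and Sox9, a transcription factor of glial progenitors (1.05, SE 0.36, adjusted p = 0.0294). Sox9 was not called without B2 or without C5. Gfap, the astrocyte intermediate filament, had 11.7 to 123.7 against 85.1, 331.0 and 41.8 and was not called (-0.82, SE 0.62, adjusted p = 0.312). Of 13 untied neural stem cell genes 2 were called higher, 1 lower and 10 were not called, with a median of -0.0716. Msi1, an RNA-binding protein of neural progenitors, and Notch2 rose by 1.68 and 1.13, Id4 fell by 3.61 on the log2 scale, and Sox2 differed by -0.13 (SE 0.32, adjusted p = 0.767).

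**Figure D4:**
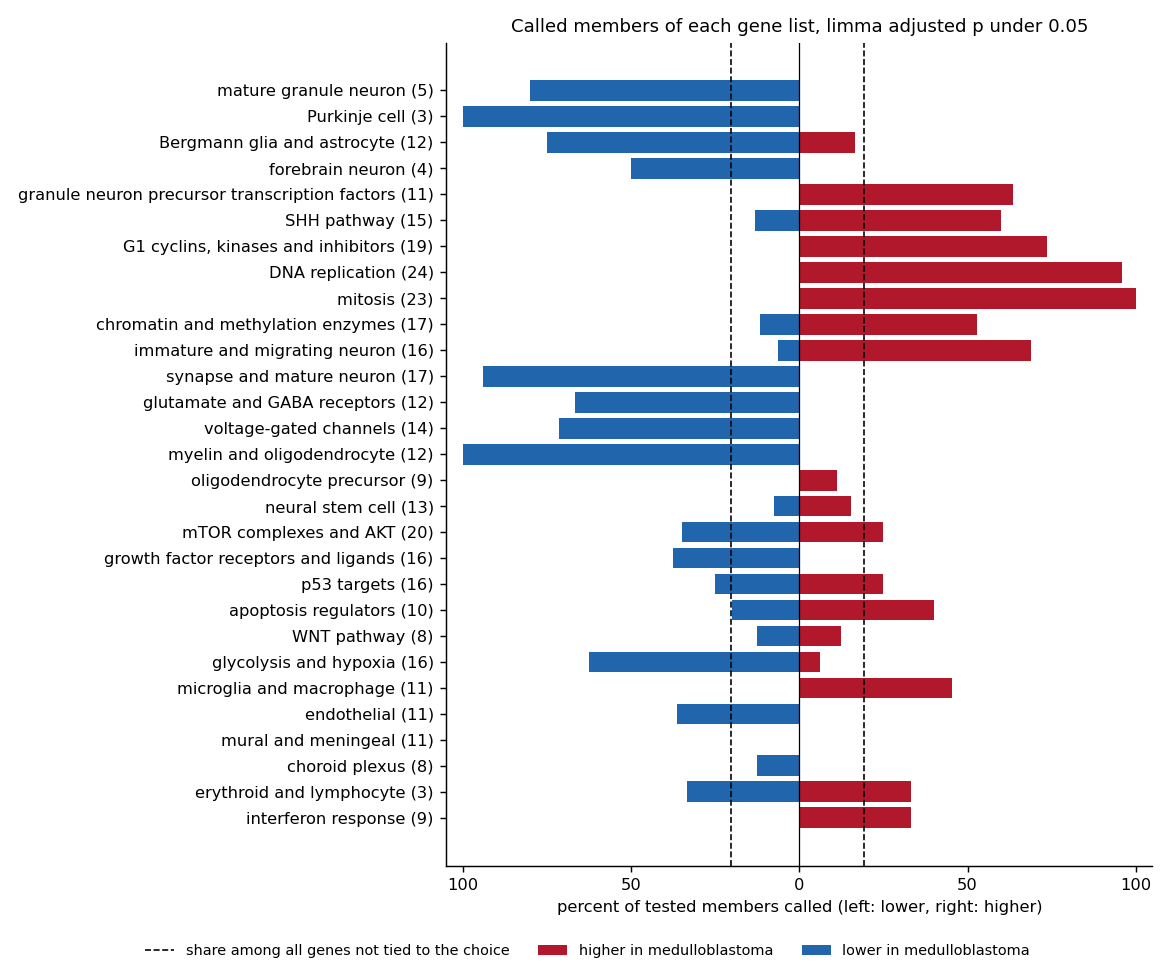
Percent of the members of each gene list not tied to the choice of arrays (number in brackets) that limma called lower (bars to the left) or higher (bars to the right) in medulloblastoma at an adjusted p under 0.05; dashed lines mark the shares among all untied genes, 20.3% lower and 19.2% higher. Mitosis (23 of 23 higher) is at one end, myelin (12 of 12 lower) and the Purkinje cell list (3 of 3 lower) are at the other, and the mural list (0 of 11) has no call.

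Rictor, the mTORC2 subunit targeted in this study, was examined with the mTOR and AKT components. Its intensity was 257.9, 222.7 and 273.3 in the tumours with no targeted Rictor allele (A3, A5 and A6) and 260.8 and 276.8 in the Rictor+/- ones (B4 and B6). In the Rictor-/- tumours it was 68.8, 158.7, 190.4, 202.1 and 235.8 (C1, C2, C4, C5 and C6). The cerebellum-rich arrays had 580.0 in Z2 from normal mice, 388.6 in Rictor+/- B2 and 443.9 in Rictor-/- C5, so the array labelled Rictor-/- was not the lowest of them. The sources used here do not say whether the probe set lies within the deleted part. All tumours, those without a targeted allele included, lay below all 3 of these arrays (-1.17, SE 0.33, limma adjusted p = 0.00953). The other 9 normal brains had 213.3 to 272.1, and the difference from them was -0.28. Rictor was not called without Z2, with the Rictor genotype as a term, within title prefix YZ or with the mean of its probe sets (-0.31, adjusted p = 0.382).

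Of the 20 tested mTOR and AKT genes 5 were called higher, 7 lower and 8 were not called, with a median of -0.328. Without B2 the lower count was 4. Irs1, the adaptor between insulin-like growth factor receptors and PI3 kinase, had 921.1 to 2174 in the tumours and 285.4, 283.3 and 321.5 in Z2, B2 and C5, with no overlap (2.44, SE 0.24, adjusted p = 2.71e-06). Eif4ebp1 and Eif4ebp2, the translational repressors that mTORC1 inactivates, rose by 2.89 and 1.84. Mapkap1, the SIN1 subunit of mTORC2, and Akt1 rose by 0.78 and 0.83. With the mean of all probe sets of a gene, Eif4ebp2 (0.5, limma adjusted p = 0.0517) and Akt1 (0.44, adjusted p = 0.0679) were not called. Lower were Sgk1, a kinase downstream of mTORC2 (-2.07, SE 0.39, adjusted p = 8.26e-04), Prkca, protein kinase C alpha (-1.89), and Prr5l, an mTORC2-associated protein (-1.45). Mtor itself was not called (-0.46, SE 0.25, adjusted p = 0.152). Of 16 untied growth factor genes 6 were called lower and none higher, with a median of -0.633; without B2 the lower count was 3 and 1 was called higher. Kit, Bdnf, Fgfr2 and Erbb3 differed by -2.18, -1.96, -1.51 and -1.38, and Erbb3 was not called without B2.

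Targets of p53 had no common direction; every tumour was p53-/-. Of 16 untied members 4 were called higher, 4 lower and 8 were not called, with a median of -0.16; the normal arrays B2 and C5 were p53-/- too. Without B2 the lower count was 2. Eda2r, a death receptor, had 31.6 to 121.6 in the tumours against 3.9, 6.7 and 0.8 (3.01, SE 0.34, adjusted p = 1.28e-05). Gtse1, a mitotic protein that restrains p53, the pro-apoptotic Pmaip1 and Trp53inp1 rose by 1.90, 1.66 and 1.34, and Pmaip1 was not called without C5. Zmat3, an RNA-binding target, had 107.3 to 197.3 against 247.1, 302.4 and 311.2 and was called lower, as was Polk, a DNA polymerase (-1.14). Mdm2, the ubiquitin ligase of p53, was not called (0.04, SE 0.21, adjusted p = 0.889). Trp53 itself was not analysed here. Of 10 untied apoptosis genes 4 were called higher and 2 lower, with a median of 0.312; without B2 the higher count was 2. Bid and Apaf1, which promote the caspase cascade, rose by 1.94 and 1.45, and the survival factor Bcl2l2 fell by 1.48 on the log2 scale. With the mean of its probe sets Bcl2l2 was not called (-0.53, limma adjusted p = 0.06).

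Glycolysis and hypoxia genes were mixed, with more lower calls than higher ones. Of 16 tested 10 were called lower, 1 higher and 5 were not called, with a median of -1.09. The higher one was Hk2, the hexokinase of growing cells, with 219.4 to 1729 in the tumours against 102.5, 85.5 and 128.5 (2.86, SE 0.47, adjusted p = 3.17e-04). Hk1, the hexokinase of mature brain, had 63.7 to 277.6 against 468.3, 622.9 and 608.0 (-1.88, SE 0.35, adjusted p = 6.55e-04). These 2 isoforms moved in opposite directions with no overlap of the groups in either. Pfkm and Pfkp, phosphofructokinase isoforms, differed by -2.85 and -2.33, and Ldhb, a lactate dehydrogenase subunit, by -1.70. Ldha, the other subunit, was not called (0.69, SE 0.29, adjusted p = 0.0713). In the WNT list 1 of 8 untied members was called higher and 1 lower, with a median of -0.00213. Nkd1, a feedback inhibitor, rose by 2.50, Wnt7a fell by 2.25 on the log2 scale, and the target Axin2 differed by 0.01 (SE 0.27, adjusted p = 0.983).

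Counts in the immune, endothelial and choroid plexus lists changed when single normal arrays were left out. Of 11 untied microglia and macrophage genes 5 were called higher and none lower, with a median of 0.673, but without Z2 or without C5 the count was 2. Against all 12 normal brains 4 were called higher and 3 lower. Lyz2, lysozyme of macrophages, had 249.2 to 2306 in the tumours against 64.4, 304.0 and 70.3 (2.43, SE 0.53, adjusted p = 0.00218), and Aif1, a macrophage marker, had 53.7 to 266.2 against 12.9, 26.9 and 18.4. B2 was the highest of the 3 in both. Csf1r and P2ry12, a receptor of all microglia and one of resting microglia, were not called (-0.06, SE 0.32, adjusted p = 0.906; 0.11, SE 0.35, adjusted p = 0.825). The mean level of the 13 tested genes was 6.65 to 7.69 in the tumours and 5.69, 7.05 and 5.92 in Z2, B2 and C5, so B2 lay within the range of the tumours. Of 9 interferon genes 3 were called higher, Usp18, Rsad2 and B2m, all with overlapping groups; without Z2 the count was 0, without C5 it was 1 and without B2 it was 2.

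Of 11 endothelial genes 4 were called lower and none higher, with a median of -0.665; without Z2 or without B2 the count was 2. The transporters of the blood-brain barrier Slco1a4 and Abcb1a differed by -1.81 and -1.73 with no overlap of the groups. None of 11 mural and meningeal genes was called (median 0.218); without B2, 2 were called higher. Of 8 choroid plexus genes 1 was called lower, Ttr (-5.02, SE 1.93, adjusted p = 0.0484), and the count was 5 without Z2 and 0 without B2 or without C5. Ttr was not called either without any one of 8 tumours (all except A5 and B4). Ttr, the transthyretin of choroid plexus, had 8734 in B4, 5340 in A5 and 5.1 to 105.8 in the other 8 tumours, and 195.6 in Z2, 9560 in B2 and 9234 in C5. The choroid list was high on the same arrays, at 8.14 in B4, 7.5 in A5, 7.39 in B2 and 8.23 in C5 and at 3.56 to 5.56 on the other tumours. In the list of blood cell genes, 3 were tested, of which Ptprc was called higher and Cd8a lower. Neither was called without Z2, without C5 or with the mean of all probe sets of the gene.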

How the data were processed

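Gene expression was measured on Affymetrix Mouse 430 2.0 arrays of 45101 probe sets. The values deposited by the authors are intensity on a linear scale, 1 per probe set and array, made with MAS5 and GCOS per the submitters' processing notes (the sources used here give no version). Every array had a 2% trimmed mean of 100, so the arrays were already scaled to one mean, which fixes the average level of each array. The number of arrays limits the precision; no detection calls were used.

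Gene symbols came from the platform annotation. Without the 64 controls, 34945 probe sets had a single symbol, for 18193 genes, and the brightest probe set on average over all 28 arrays stood for its gene. limma 3.58.1 (lmFit, then eBayes with trend) in R 4.3.3 tested the 13931 genes whose mean exceeded the 30th percentile, 3.88, as log2(intensity + 6.3). The pseudocount is the 25th percentile of the table, and a log2 difference on this scale understates the change of a dim gene. Tests are two-sided, p-values were adjusted by Benjamini-Hochberg over all tested genes, and genes under 0.05 are called. Rises and falls written as numbers alone are log2 differences of called genes. The procedure was tested on simulated data.

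Samples were grouped by the tissue in their labels, the normal brains also by Gabra6. The members and gene lists were chosen with earlier results of these data known. Lists are described by counts and medians, without a set test. Named genes were the 12 largest rises and 12 largest falls among called, untied genes (clone and predicted names skipped), up to 4 called members per list with the largest change (for a list with fewer than 2, the 2 with the highest mean), Rictor, and tied genes of the lists. Further list members, such as Cdk1, Neurod1, Smo, Hhip, Fabp7, Ezh1, Mtor, Ldha and Igf1r, were named after their values were seen. Promoter windows are RefSeq's, of GRCm38.p6, matched by symbol. Alternative settings changed the pseudocount, filter, scaling, probe set rule, arrays and model terms, and 2 were added after the data were seen: all 12 normal brains as labelled, and C5 as the only normal array. Tables and figures were made in Python 3.11.15 with matplotlib 3.10.9.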

Additional observations from a re-analysis of the deposited data

Results flagged for a closer look

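Among the 238 genes named or listed, each was searched for a tumour far from the other 9, on the log2 scale, by the gap to the nearest tumour as a share of the whole range, against Dixon's critical value for 10 samples. This was met 26 times; chance alone gives about 1 in 20 groups, and each gene has 1 group.

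In medulloblastoma C1, Igf1r had an intensity of 4691 against 259.2 to 476.1 in the other 9, the widest gap found (0.792 of the range). Rictor was 68.8 there (others 158.7 to 276.8), Barhl2 28.9 (81.4 to 153.4), Sox4 1654 (2737 to 4558), Rgs5 168.1 (446.4 to 1277) and Plk2 354.8 (31.6 to 113.2). In C6, Atoh1 was 37.5 (others 493.3 to 1679), Dcc 304.2 (913.7 to 2135), Cxcr4 101.4 (227.2 to 519.1), Gli1 23.4 (95.4 to 320.7) and Smo 149.8 (417.6 to 856.4). In C4, Otx2 was 0.6 (others 72.4 to 847.6), Neurod6 9.7 (123.5 to 426.5), Cbln1 98.8 (346.8 to 1334), Zic5 153.9 (422.1 to 1127) and Vim 781.7 (1372 to 2572).

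In A3, the genes set apart belong to dividing cells and to the lineage: Mcm3 235.1 (others 442.6 to 847.2), Cdc6 45.9 (121.9 to 214.1), Bub1 308.9 (440.8 to 648.3), Dnmt1 376.3 (562.8 to 880.2) and Neurod1 1603 (2677 to 4736). In A6, Ube2c was 405.8 (818.6 to 1454) and Slc1a3 1572 (270.5 to 603.6). Single genes were set apart in B4 (Ptprc 444.1, others 56.5 to 169.6), C2 (Gas1 3771, others 327.0 to 1019) and C5 (Pdgfra 374.4, others 878.0 to 2019).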

How the results depend on the processing

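With one array left out, the genes called higher numbered 1853 to 2792 and lower 2178 to 3169, the lowest counts without normal brain C5. Within title prefix YZ (5 tumours and 2 normal arrays) the counts were 1702 and 2060, and within YZ2, with Z2 as the only normal array, 344 and 23. With the Rictor genotype as a term and Z2 left out they were 1643 and 1930. With C5 as the only normal array they were 850 and 706, and against all 12 normal brains as labelled 4526 and 4600. A lone normal array was assumed to vary like the tumours. The other settings gave counts within 1.5 times the reported ones. Against all 12 normal brains the difference of tied genes turned for Gabra6 (0.55), Cbln3 (0.41), Cbln1 (1.19), Fat2 (1.55), Pcp2 (0.17), Homer3 (0.25), Lhx2 (-0.22) and Fgfr1 (0.06), and P2ry12, not called otherwise, was lower (-1.18); Gabra6 was 1.1 to 116.3 in the 9 added normal brains. Of 146 named and tested genes called, none turned. Of these, 14 were no longer called without Z2, 13 without B2, 14 without C5 and at most 5 without any one tumour. With the Rictor genotype as a term and Z2 left out, 24 were no longer called, within title prefix YZ 18, and with the mean of all probe sets 11. Still more were lost within YZ2 and with C5 alone, settings that leave 1 normal array. Another scaling moved the median of all genes from -0.0434 to -0.0207 (quantile) or 0.00986 (median centring). No paired analysis was possible because the tumours and the 3 normal arrays share only the code C5. Dim genes, near the pseudocount, have the least precise differences, and 3 normal arrays of 3 genotypes carry one side of every comparison.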

Other observations

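Igf1r, the insulin-like growth factor receptor, was at 4691 in tumour C1 and at 385.0, 394.1 and 473.1 in the cerebellum-rich arrays, so 1 of 10 tumours differed from normal tissue and the group did not (0.24, SE 0.60, limma adjusted p = 0.780). The same tumour had the lowest Rictor (68.8) and Cdk6 (472.7) of the 10, and Camk2a, a kinase of forebrain neurons, at 695.7 where the other 9 tumours had 0.4 to 204.2 and the cerebellum-rich arrays 172.3 to 267.5.

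Neurod6, a transcription factor of cortical neurons and tied to the choice of arrays, was at 123.5 to 426.5 in 9 tumours, above the 38.1, 30.8 and 25.7 of the cerebellum-rich arrays and within the 108.7 to 538.3 of the other normal brains. Lhx2, a homeobox gene of the forebrain, had 26.7 to 197.0 in the tumours against 1.9, 16.1 and 12.1, while Tbr1, another cortical factor, had 1.7 to 43.1 against 0.6, 5.8 and 2.9. Both are tied to the choice as well, and against all 12 normal brains Lhx2 differed by -0.22. Of the 7 tied forebrain genes 6 had positive differences, and Cck had a negative one (-3.06). None of the 4 untied ones was positive, with Tac1 at -2.93 and Ppp1r1b at -2.58. Otx2, a homeobox gene of some medulloblastomas and of choroid plexus, ran from 0.6 in C4 to 847.6 in A6 and was not called (1.13, SE 1.02, limma adjusted p = 0.398).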
